A study of Mus musculus with 8 samples.

Results

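Of 98245 regions with open chromatin in at least 1 of 8 ATAC-seq libraries of mouse granulosa cells, 1150 (1.17%) had a peak in both PMSG libraries and both Pgr wild-type libraries, and no peak in either hCG or either Pgr knockout library. They were chosen by peak presence alone. Peak intervals of all 8 lists on chromosomes 1 to 19 and X were joined into regions where they shared 1 bp or more, and a library counts as holding every region in which its own list has a peak. ATAC-seq marks accessible DNA by cutting it with the transposase Tn5, and the deposited files list the peaks of each library. Each of the 4 groups had 2 libraries, each from cells pooled from 2 to 3 mice aged 21 days that had received 5 IU of eCG (PMSG), a hormone that makes follicles grow.

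The PMSG and hCG groups were wild-type CBA x C57BL/6 F1 mice, whose labels place collection 46 h after eCG without further treatment (PMSG) or 6 h after 5 IU of hCG (hCG). The WT and KO groups carried, per the labels, the strain name C.129S7(B6)-Pgrtm1Bwo/OmcJ and were wild type or null for Pgr, the gene of the progesterone receptor, and both were collected 6 h after hCG. The knockout is present in every cell of the animal, not in granulosa cells alone, and the WT and KO mice differ in strain from the PMSG and hCG mice. The time tags of the PMSG and hCG libraries are swapped against their titles, and the titles were followed because the source names match them. The source name of the WT and KO libraries calls them pre-ovulatory beside a tag of 6 h. Whether mice of different groups shared a litter is not given in the sources used here.

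Granulosa cells surround the oocyte and respond to follicle-stimulating hormone by making estradiol. The surge of luteinising hormone, for which hCG stands in, ends that programme and begins ovulation and luteinisation. The surge induces the progesterone receptor, a transcription factor of the nuclear receptor family, and mice without it do not ovulate. Open regions away from genes often hold enhancers, which act on genes at a distance. The 1150 regions were therefore open, by peak calls, before the surge in one strain, closed after it in that strain, and open after it in the other strain when Pgr was intact.

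Few of the 1150 regions lay at known transcription starts. Only 9 of 32585 RefSeq promoters (assembly GRCm38.p6, 250 bases before to 50 after each start; the submitters' processing notes name the matching build mm10) overlapped one. The same count was 98 for all 8338 regions held by both PMSG and neither hCG library, and 14294 for the 37189 regions common to all 8 libraries. These sets differ in size, and promoters were few for the 8338 regions as well. The parts of these promoters that lie upstream of the start and inside the region are printed for protein-coding genes and for promoters with a searched motif other than the E-box in that part, because they are the places where a region's sequence could be read. Those of Mir100hg and Gm41259 are not printed, since such motifs there lie outside it. Letters run 5′ to 3′ along the gene's strand, and capitals mark a motif match on either strand.
Prph2, chr17:46910228-46910477, plus strand: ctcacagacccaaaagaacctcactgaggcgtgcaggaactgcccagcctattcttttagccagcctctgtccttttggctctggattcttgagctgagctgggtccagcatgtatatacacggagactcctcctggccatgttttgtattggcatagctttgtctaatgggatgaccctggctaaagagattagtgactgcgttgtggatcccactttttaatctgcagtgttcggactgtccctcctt
Scg3, chr9:75684057-75684088, minus strand: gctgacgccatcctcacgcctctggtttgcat
Gjc3, chr5:137963172-137963348, minus strand: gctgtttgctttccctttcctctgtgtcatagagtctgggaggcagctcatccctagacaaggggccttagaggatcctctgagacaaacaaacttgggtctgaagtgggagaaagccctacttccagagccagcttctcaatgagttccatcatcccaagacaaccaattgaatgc
Fam78a, chr2:32064165-32064323, minus strand: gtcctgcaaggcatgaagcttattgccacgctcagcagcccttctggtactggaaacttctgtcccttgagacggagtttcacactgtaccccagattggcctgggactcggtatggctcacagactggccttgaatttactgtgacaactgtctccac
Gm38542, chr3:78919634-78919749, minus strand: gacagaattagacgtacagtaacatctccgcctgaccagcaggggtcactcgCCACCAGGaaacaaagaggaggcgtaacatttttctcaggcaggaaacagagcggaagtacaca
Gm11494, chr11:90143625-90143874, minus strand: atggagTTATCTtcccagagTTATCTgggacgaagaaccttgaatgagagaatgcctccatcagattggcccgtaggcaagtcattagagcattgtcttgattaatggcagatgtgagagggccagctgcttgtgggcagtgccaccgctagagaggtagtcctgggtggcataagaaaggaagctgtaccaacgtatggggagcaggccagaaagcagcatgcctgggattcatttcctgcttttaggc
Gm41171, chr14:61846708-61846858, minus strand: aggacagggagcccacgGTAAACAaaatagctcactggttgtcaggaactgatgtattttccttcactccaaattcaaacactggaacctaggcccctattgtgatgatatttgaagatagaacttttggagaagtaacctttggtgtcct
Prph2 encodes a photoreceptor disc protein, Gjc3 a connexin and Scg3 a secretogranin. Genes whose names begin with Gm are predicted loci.

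Motifs of 12 kinds were searched on both strands. Among nuclear receptors these were CAAGGTCA, bound by orphan receptors such as the granulosa factors NR5A1 and NR5A2, and ACANNNTGT, the inverted repeat that steroid receptors including PGR recognise, and also the palindromic estrogen response element. For AP-1, the Fos and Jun family, the letters TGANTCA were used, and for GATA factors such as GATA4 the letters AGATAA. Forkhead factors such as FOXO1 were searched by TGTTTAC, while the RUNX family, which the surge induces, was searched by TGTGGT. The C/EBP family was searched by TTGCNNAA, and the cAMP-responsive CREB family by TGACGTCA. The TEAD partners of the Hippo pathway were searched by GGAATG. Part of the motif of the insulator protein CTCF was searched by CCACNAGG, and the E-box of basic helix-loop-helix factors, left in lower case, by CANNTG. ACANNNTGT stood in 1 of the 9 promoters (11.1%, Wilson 95% interval 1.99 to 43.5), that of Mir100hg, in 6.90% of all 32585 and in 9.18% of the 98 that overlapped a region held by both PMSG and neither hCG library. AGATAA stood in 2 of 9, those of Gm11494 and Gm41259 (22.2%, 6.32 to 54.7), against 11.2% of all and 26.5% (18.8 to 36.0) of the 98. The CTCF letters stood in 2 of 9, those of Gm38542 and Fam78a, against 5.02% of all and 5.10% of the 98. TGTTTAC stood in 1 of 9 (Gm41171) against 3.67%, TGTGGT in 1 of 9 (Gm41259) against 16.6%, and CANNTG in 5 of 9 against 72.3%. The orphan receptor, estrogen receptor, AP-1, C/EBP, CREB and TEAD motifs stood in 0 of 9, and in 1.53%, 0.0706%, 7.85%, 10.9%, 1.80% and 14.6% of all promoters in that order. With 9 promoters the intervals are wide. The share of all promoters lay inside the interval of the 9 for every motif but the CTCF letters, whose interval was 6.32 to 54.7. Intervals of 12 motifs were looked at, and the CTCF match of Fam78a lay outside the printed part. The median GC content was 51% in the 9 promoters, 51% in promoters overlapping any PMSG-only region and 62% in promoters overlapping regions held by all 8 libraries.

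PMSG-only here means a peak in both PMSG libraries and in neither hCG library. Such regions numbered 8338, which is 8.49% of all regions. Of these, 1150 (13.8%, the set described here) were also WT-only, which means held by both WT and neither KO library. WT-only regions were 11.2% of all regions, 16.6% of 14212 hCG-only regions (held by both hCG and neither PMSG library) and 1.73% of 40780 regions held by all 4 PMSG and hCG libraries. The reverse pattern, both KO and neither WT library, was found in 14 PMSG-only regions (0.168%), against 0.0743% of all regions. The rule used these contrasts, so the shares describe the choice and are no test.

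The WT lists were longer than the others, with 80137 and 84313 intervals against 58851 and 55654 in KO, 57992 and 58780 in PMSG, and 65567 and 62327 in hCG. With the 55654 best peaks by fold taken from every list, 240 of 10074 PMSG-only regions (2.38%) were WT-only and 802 (7.96%) were KO-only. WT-only regions were then 3.64% and KO-only regions 3.54% of all 84367 regions. The larger count thus lay on the WT side with all peaks and on the KO side with lists of equal length. Of the 1150 regions, 230 (20%) still met the rule in equal lists. Their PMSG peaks were mostly kept, with 1098 and 1085 of 1150 still held by PMSG replicates 1 and 2. WT replicate 1 still held 632 (55.0%) and WT replicate 2 held 262 (22.8%), and 486 (42.3%) were held by neither. Kept in WT and lost in the knockout thus describes all 1150 in the deposited lists and 230 of them in lists of equal length, so they are named by their rule below. The lists give no read numbers, so depth is unknown.

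**Figure D1:**
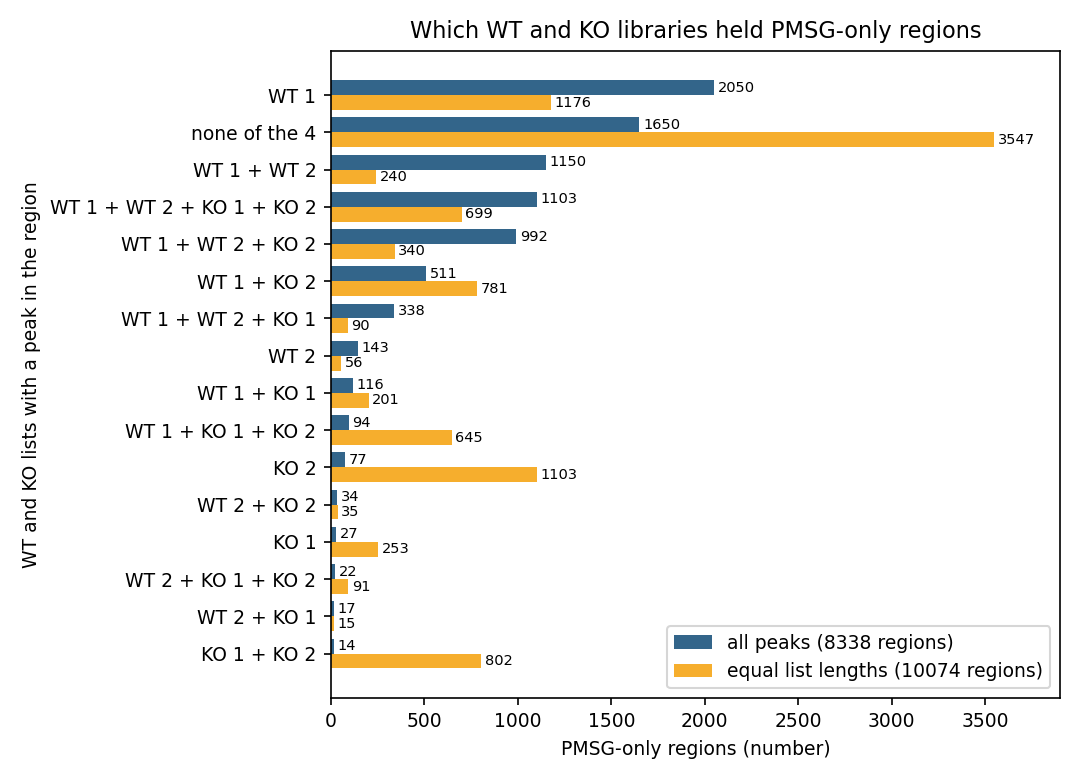
Number of PMSG-only regions (horizontal axis) by which of the 4 WT and KO libraries held them (vertical axis; digits are replicate numbers), with all deposited peaks in blue and with the same number of peaks from every list in yellow. WT 1 + WT 2 with all peaks is the set described here, 1150 regions. With equal lists this pattern has 240 regions, while 230 of the 1150 still meet the rule there. KO 1 + KO 2 goes from 14 to 802.

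The WT replicates were unequal. Of the 8338 PMSG-only regions, WT replicate 1 held 6354 (76.2%) and WT replicate 2 held 3799 (45.6%). KO replicate 2 held 2847 (34.1%) and KO replicate 1 held 1731 (20.8%). WT replicate 1 alone held 2050 regions (24.6%), more than both WT libraries without KO, while WT replicate 2 alone held 143. No WT or KO library held 1650 (19.8%), and all 4 held 1103 (13.2%). Between these, 992 regions had both WT libraries with KO replicate 2, and 338 had both with KO replicate 1. Without WT replicate 2 the rule would choose 3200 regions, and without KO replicate 2 it would choose 2142. Without WT replicate 1 it would choose 1293, and leaving out KO replicate 1 gave 1488. WT replicate 2 and KO replicate 2 were the libraries whose omission moved the number most.

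Peaks in the 1150 regions were of middling to low height. The authors' fold is the height of a peak's summit over the caller's background in the same library, and a rank percentile of 100 is the highest fold in a list. The fold is scaled within each library, so its order across libraries describes the lists and is no measure of a change in accessibility. In PMSG replicate 1 the fold ran from 1.98 to 17.9 with a median of 7.62, and in PMSG replicate 2 from 2.12 to 19.3 with a median of 7.89. In WT replicate 1 it ran from 1.64 to 16.3 with a median of 6.01, and in WT replicate 2 from 1.73 to 16.1 with a median of 4.96. As ranks within each list, the medians were 35.5 and 35.9 in PMSG, 33.1 in WT replicate 1 and 20.6 in WT replicate 2. A longer list with more weak peaks raises the percentile of the same peak, so ranks in the PMSG and WT lists are not set against each other. The PMSG libraries sat close together, and WT replicate 2 was below WT replicate 1. Regions held by all 8 libraries had median ranks between 62.7 and 72.9. All 8338 regions held by both PMSG and neither hCG library had median ranks of 33.8 and 35.0 in PMSG replicates 1 and 2. Where a WT list held them, the medians were 33.1 in WT replicate 1 and 23.7 in WT replicate 2. The middling to low height and the lower WT replicate 2 were thus shared with those regions.

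The rank was higher in WT replicate 1 than in WT replicate 2 at 916 of 1150 regions (79.7%, Wilson 95% interval 77.2 to 81.9). Among the 2363 regions that were hCG-only and WT-only it was higher at 458 (19.4%, 17.8 to 21.0), so the order of the same 2 libraries was the opposite there. Among the 1103 PMSG-only regions held by all 4 WT and KO libraries it was higher at 79.5%, and among the 37189 regions of all 8 libraries at 49.0%. WT replicate 1 thus ranked higher at PMSG-only regions whether or not the KO libraries held them. Of 8 markers of theca and stroma, 6 had a peak within 1 kb of a gene end in WT replicate 1, and 4 in WT replicate 2 and in each KO and hCG library. PMSG replicates 1 and 2, which both hold the regions, had 3 and 5. The WT replicates differed at 2 of the 8. Cyp17a1, the androgen-making enzyme of theca cells, had such a peak in WT replicate 1 and PMSG replicate 2 only, and Pdgfra in WT replicate 1 only. The part of other cells in the WT difference was not tested. Of 10 granulosa markers 8 had a peak at a gene end in every list but WT replicate 1, which had 9. The FSH receptor gene Fshr and Foxl2, which keeps the ovarian fate, were among them in every list, and aromatase, Cyp19a1, was in none. Endothelial markers had 3 of 7 in every list, oocyte markers 1 to 3 of 7, immune markers 0 or 1 of 8, and 4 genes of the Y chromosome 0.

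**Figure D2:**
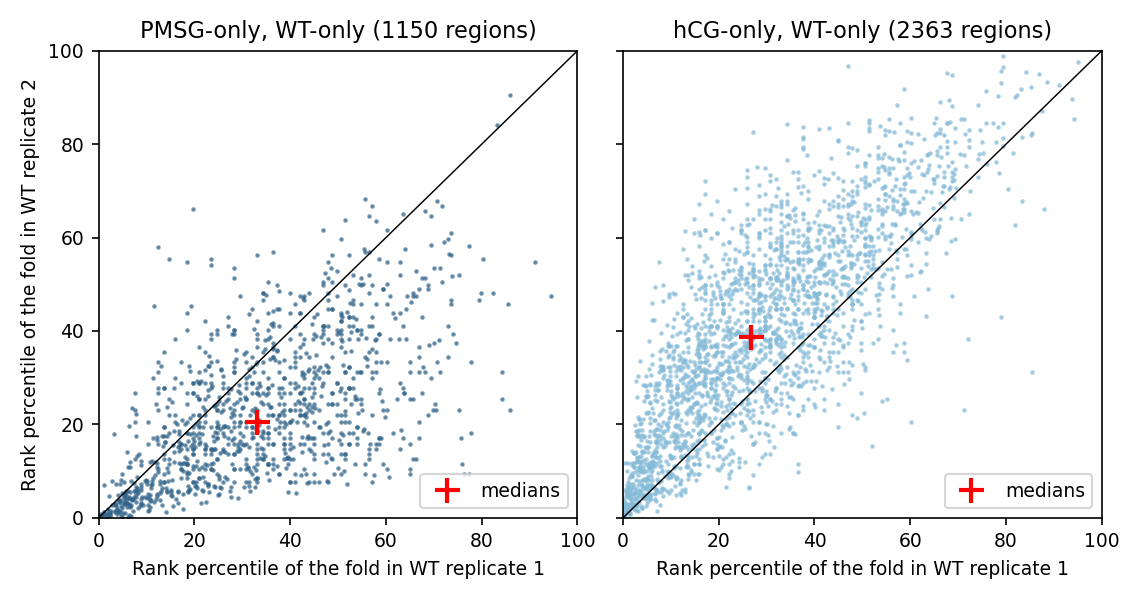
Rank percentile of the authors' fold in WT replicate 1 (horizontal) and WT replicate 2 (vertical), 1 point per region, for the 1150 PMSG-only and WT-only regions (left) and the 2363 hCG-only and WT-only regions (right), with the line of equal rank and red crosses at the medians. The left cloud lies mostly below the line (medians 33.1 and 20.6) and the right cloud mostly above it (26.8 and 38.8).

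Many of the 1150 regions were near the limit of the peak calls. No list holds a −log10 q under 10. The lowest −log10 q over the 4 holding lists ran from 10 to 64.9 with a median of 18.6, and it fell in WT replicate 2 for 633 regions (55.0%). It was 20 or more in all 4 lists for 514 regions (44.7%). Just outside the rule, the 992 regions that added KO replicate 2 alone had a median −log10 q of 21.6 there, and the 338 that added KO replicate 1 had 18.6. The 311 and 124 regions that added hCG replicate 1 or 2 alone had 23.5 and 17.5. Their PMSG peaks ranked higher when KO replicate 2 was added, at medians of 49.7 and 51.3, than when KO replicate 1 was added, at 27.0 and 29.7.

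The summits of the holding lists fell close to each other. The outermost best summits of the 4 lists were a median of 33 bp apart, and within 100 bp in 981 regions (85.3%). A stretch common to all 4 lists had a median of 141 bp, and 21 regions had none, being joined through an interval between others. In the absent lists, a KO interval lay within 500 bp of 21 regions (1.83%) and an hCG interval within 500 bp of 26 (2.26%). The median distance to the nearest KO interval was 8.25 kb and to the nearest hCG interval 7.58 kb. The rule itself keeps KO and hCG intervals from overlapping these regions. No such shares or distances are given for other regions, so whether these are low or high was not tested.

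The 20 regions with the best mean rank had no gene end within 1 kb of the midpoint. Of these 20, 9 lay inside a protein-coding gene and 6 lay over 100 kb from a gene end. Of all 1150 regions, 3.48% had a gene end within 1 kb, 59.2% lay inside a gene and 15.8% lay over 100 kb away. Over these 20 the fold was between 9.52 and 17.9 in PMSG replicate 1, 10.9 and 19.3 in PMSG replicate 2, 8.56 and 16.3 in WT replicate 1, and 5.36 and 10.4 in WT replicate 2. In 16 of 20 the fold was higher in WT replicate 1 than in WT replicate 2. Of the 20, 16 still met the rule in equal lists, 12 when a library had to cover 50% of the region, and 0 with the best 20000 peaks of every list.

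The best region lay in Trmt1l, a gene related to tRNA methyltransferases, on chromosome 1 at 151435349 to 151435760, with folds of 16.9 and 17.4 in PMSG replicates 1 and 2, 12.4 in WT replicate 1 and 8.63 in WT replicate 2. The next, on chromosome 13 at 79285572 to 79285774, was 1090 kb from its nearest gene, Nr2f1, which encodes the orphan nuclear receptor COUP-TFI. Its folds were 16.1 and 17.7 in PMSG and 10.4 and 10 in WT, so that the WT replicates were nearly level. A region on chromosome 3 at 35693084 to 35693314, nearest to the lipid flippase gene Atp11b, had 17.0 and 16.6 in PMSG and 10.8 and 7.93 in WT. The region nearest to Rnf217, a ubiquitin ligase gene, on chromosome 10 at 31630254 to 31630533, had its highest fold in WT replicate 1, at 16.3, with 14.7 and 13.5 in PMSG and 7.54 in WT replicate 2. On chromosome 7 at 68823296 to 68823621, 74.2 kb from the arrestin-domain gene Arrdc4, the folds were 16.3 and 16.7 in PMSG and 9.89 and 8.23 in WT. The highest PMSG folds of the 20 were 17.9 and 19.3, on chromosome 16 at 77365150 to 77365640, nearest to the deubiquitinase gene Usp25, beside 9.68 and 6.05 in WT.

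Others of the 20 lay inside Dnah12 (an axonemal dynein), Fbxl7 (an F-box protein), Stard13 (a START-domain protein), Lrba, Fmn1 (a formin), Ptprk (a receptor tyrosine phosphatase) and Pdgfd (a platelet-derived growth factor). Those nearest to Smarcad1, Triml1, Rad23b and Cdh8 lay outside genes. In the regions at Smarcad1, Fmn1 and Pdgfd the fold was higher in WT replicate 2 (10.1, 10.4 and 9.83) than in WT replicate 1 (9.48, 8.56 and 8.66), and at Triml1 it was 10.2 in both. One region lay inside Vmn2r9, a vomeronasal receptor gene of a family of similar copies, and others were 3.63 kb from Vmn2r6, of the same family, and 75.3 kb from the immune receptor gene Lilr4b. Whether reads there map to 1 place was not tested. Their folds in WT replicate 1 and 2 were 13.3 and 5.85, 9.68 and 5.85, and 8.56 and 6.84.

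**Figure D3:**
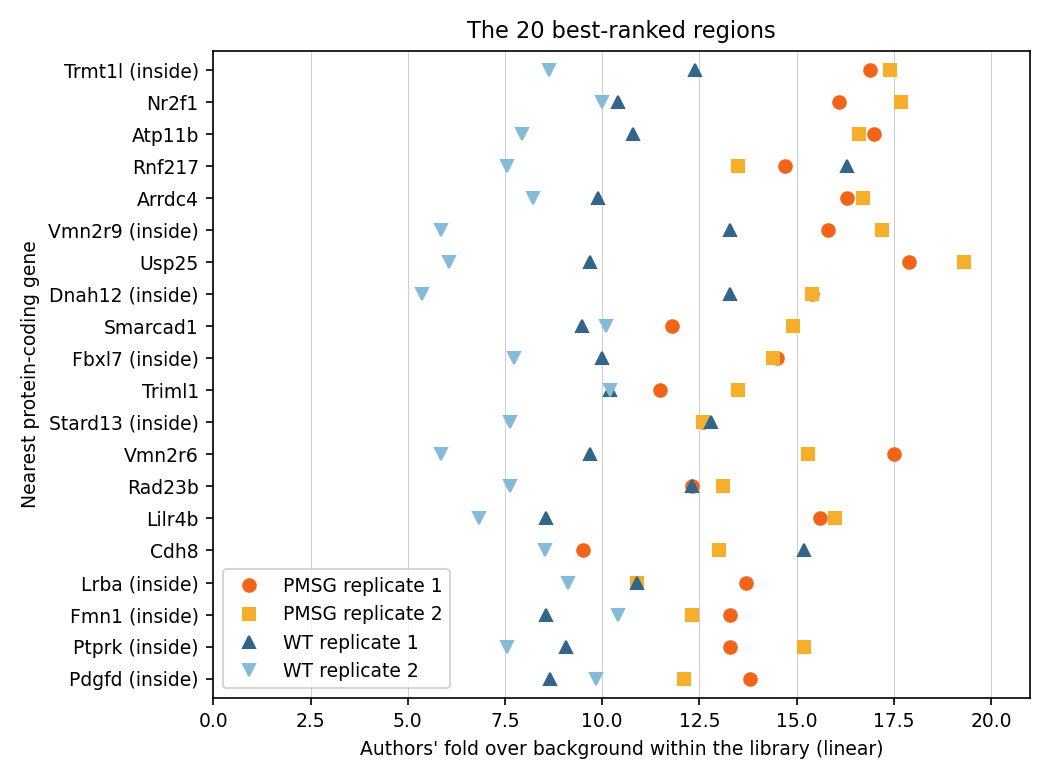
The authors' fold (horizontal axis, linear) in the 4 libraries that held them for the 20 best-ranked of the 1150 regions (vertical axis, named by nearest protein-coding gene, best at the top). PMSG points (orange and yellow) mostly lie to the right of WT points (blue), and WT replicate 1 lies to the right of WT replicate 2 in 16 of 20.

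Most of the 1150 regions were distal. A protein-coding gene began or ended within 1 kb of the midpoint in 40 (3.48%, Wilson 95% interval 2.56 to 4.70), against 31.1% of regions held by all 8 libraries and 14.4% of all regions. It was 2.82% of all PMSG-only regions and 3.51% of regions that were hCG-only and WT-only. Of PMSG-only regions held by no WT or KO library it was 2.18%, a difference of 1.30 percentage points (95% interval 0.0662 to 2.66), and of those held by all 4 it was 2.72%, a difference of 0.758 points (−0.700 to 2.22). Of the 9838 WT-only regions that were not PMSG-only it was 4.79%, a difference of −1.31 points (−2.32 to −0.0208). The midpoint was inside a protein-coding gene in 681 (59.2%, 56.4 to 62.0) and over 100 kb from any gene end in 182 (15.8%, 13.8 to 18.0). The median distance to a gene end was 22.9 kb, with quartiles of 8.18 and 60.8 kb. Widths ran from 144 to 1219 bp with a median of 315 bp.

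In the deposited lists, the regions lay nearer to genes than PMSG-only regions held by none or by all of the WT and KO libraries. Of the 1650 PMSG-only regions held by no WT or KO library, 27.4% were over 100 kb from a gene end and 49.5% were inside a gene. The difference was −11.6 percentage points (95% interval −14.5 to −8.51) for the first and 9.70 points (5.96 to 13.4) for the second. Of the 1103 held by all 4 WT and KO libraries, 23.7% were over 100 kb away, a difference of −7.84 points (−11.1 to −4.56), and 50.5% were inside a gene, a difference of 8.72 points (4.61 to 12.8). WT-only regions that were not PMSG-only lay closer to the 1150 in both shares. Of those 9838, 13.1% were over 100 kb away, a difference of 2.71 points (0.605 to 5.03), and 59.3% were inside a gene, a difference of −0.114 points (−3.14 to 2.86). The intervals cover counting error over regions of these libraries. In equal lists, a comparison chosen after seeing the data, most of these differences were within error. There 17.5% of the 240 regions were over 100 kb from a gene end and 56.2% were inside a gene. Against the 3547 held by no WT or KO library (23.6% and 54.0%) the differences were −6.07 points (−10.6 to −0.587) and 2.23 points (−4.30 to 8.58). Against the 699 held by all 4 (23.0% and 49.9%) they were −5.53 points (−10.9 to 0.549) and 6.32 points (−1.01 to 13.5), so both intervals included 0. Against the 802 held by both KO and neither WT library (11.6% and 60.8%) they were 5.90 points (0.992 to 11.6) and −4.60 points (−11.7 to 2.42). The 802 were thus less often over 100 kb from a gene end than the 240.

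**Figure D4:**
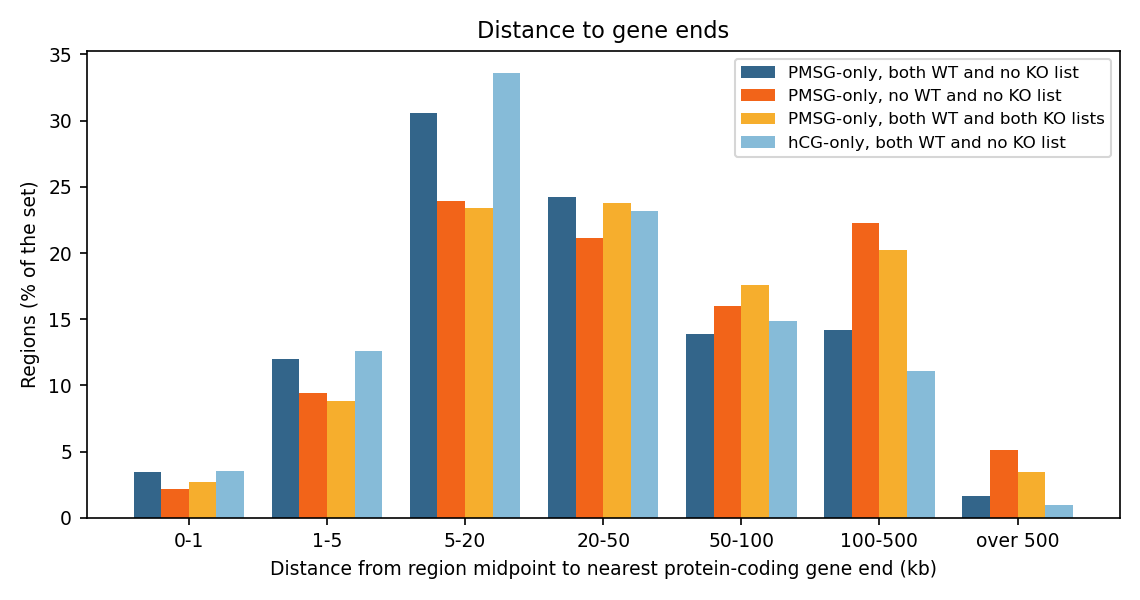
Share of each set of regions (vertical axis, percent) by distance from the midpoint to the nearest end of a protein-coding gene (horizontal axis, kb), for the 1150 regions and for 3 other sets. In the bin of 100 to 500 kb the 1150 regions have 14.2%, below the PMSG-only regions held by no WT or KO library (22.3%) and by all 4 (20.2%), and above the hCG-only and WT-only regions (11.1%).

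Of the 40 regions at gene ends, 28 had a gene whose strand the promoter table gives. The nearest end was the start in 4 of these (Prph2, Gjc3, Gpr6 and Gramd1a) and the far end in 24. Ends here are those of the whole gene, while the promoter table has its own start for each gene, which for Gpr6 and Gramd1a put the promoter outside the region. Among the best-ranked 5 of the 40 were those at Mvp, Taf12, Slitrk3 and Calb2. Mvp, the major vault protein gene, had the region 0.367 kb from its far end on chromosome 7 at 126986415 to 126986571, with folds of 12.3 and 13.0 in PMSG and 7.95 and 5.95 in WT. Taf12, a subunit gene of the general transcription factor TFIID, had folds of 10.2 and 11.9 in PMSG and 7.44 and 8.53 in WT, also at its far end. Slitrk3, a neuronal membrane protein gene, had 14.1 and 12.3 in PMSG and 7.24 and 4.86 in WT. Calb2, the gene of the calcium-binding protein calretinin, had 10.7 and 11.4 in PMSG and 5.30 and 6.74 in WT. Of the 40, 3 still met the rule in equal lists, Taf12 among them. One region further down the ranking overlapped the hairpin of the microRNA gene Mir7020 on chromosome 4.

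The regions were spread over all chromosomes. They made up between 0.759% of regions on chromosome 9 and 1.74% on chromosome X, and between 9.59% of PMSG-only regions on chromosome 3 and 18.2% on chromosome 8. Of the 1150, 46 (4%) had another of them within 20 kb. That share was 4.62% in the 1103 PMSG-only regions held by all 4 WT and KO libraries, 7.52% in the 1650 held by none and 12.1% in the 2363 hCG-only and WT-only regions. The sets differ in size, which bears on such a share. Within 10 Mb of Pgr on chromosome 9, where the targeted strain can carry DNA of another origin, 2 of 31 PMSG-only regions were WT-only (6.45%, 1.79 to 20.7), against 13.8% elsewhere.

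The body with 20 kb flanks of 1140 of 21631 protein-coding genes held at least 1 of the regions, that of 76 genes held 2 or more, and that of 8 genes held 3 or more. Ttc7b, a scaffold gene of a phosphatidylinositol kinase complex, had 4, which were all of its PMSG-only regions among 37 regions in all. The 4 lay inside the gene on chromosome 12, and the best, at 100321484 to 100321820, had folds of 11.5 and 11.0 in PMSG and 7.41 and 4.92 in WT. Col6a3, a collagen VI chain, had 3 of 3 PMSG-only regions, the best on chromosome 1 at 90758249 to 90758698, with folds of 7.55 and 7.19 in PMSG and 7.35 and 6.84 in WT, nearly level over the 4 libraries. Angpt4, an angiopoietin that binds the endothelial receptor TEK, had 3 of 3, the best on chromosome 2 at 151930492 to 151930772 with 11.8 and 10.5 in PMSG and 6.83 and 6.64 in WT. Rabep1 (an effector of endosomal Rab GTPases) and Zc3h3 (a zinc finger protein of mRNA export) also had 3 of 3, with 1 of those counted for Rabep1 inside its neighbour Nup88, Aff1 (a transcription elongation factor) 3 of 4, Tns1 (the focal adhesion protein tensin) 3 of 5 and Sntg2 (a syntrophin) 3 of 6. The best at Sntg2, on chromosome 12 at 30199859 to 30200182, had 11.6 and 11.3 in PMSG and 8.87 and 7.74 in WT. Abcc9, a subunit of ATP-sensitive potassium channels, and Ankrd53 had 2 of 2 each, as the first by fewest PMSG-only regions and name among genes with 2. Both regions counted for Ankrd53 lay inside its neighbour Atp6v1b1. Of the 29 regions at these 10 genes, 8 still met the rule in equal lists: 3 at Sntg2, 2 at Col6a3 and 1 each at Angpt4, Rabep1 and Zc3h3.

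The 20 pre-surge granulosa genes, which serve FSH response and estradiol synthesis, had 6 of the regions among 33 PMSG-only regions (18.2%, beside 13.8% of all PMSG-only regions), at 5 genes. Esr2, estrogen receptor beta, had 2 of 4. One lay 2.58 kb from a gene end on chromosome 12 at 76117721 to 76117959, with folds of 5.89 and 7.15 in PMSG and 4.57 and 4.54 in WT. The other, inside the neighbour Syne2 at 76110039 to 76110361, had 3.75 and 4.45 in PMSG and 3.54 and 4.42 in WT. Fshr had 1 of 3, inside the gene on chromosome 17 at 88999274 to 88999522, with 7.63 and 6.98 in PMSG and 4.45 and 4.70 in WT. Inhba, the inhibin and activin beta A subunit, had 1 of 2, inside the gene on chromosome 13 at 16005640 to 16005945, with 8.55 and 8.64 in PMSG and 3.48 and 3.39 in WT. Foxo1, a forkhead factor of growing follicles, had 1 of 4, with folds of 2.97 and 2.92 in PMSG and 2.70 in both WT libraries, close to the lowest of the set. Amhr2, the receptor of anti-Müllerian hormone, had 1 of 1 with 4.37 and 3.54 in PMSG and 3.66 and 3.45 in WT. Of these 6, the region at Fshr and that at Inhba had the higher ranks, at mean percentiles of 23.5 and 24.4. Cyp19a1, Inha, Inhbb, Nr5a2, Lhcgr, Amh, Gja1, Igf1, Igf1r, Fst and Gata4 had PMSG-only regions within 20 kb and none of the set. With flanks of 50 kb Nr5a2 had 2 of the set, and Inhbb and Foxl2 had 1 each. In equal lists none of the 6 met the rule. The list then had 31 PMSG-only regions, of which 0 were WT-only and 10 KO-only. Of all PMSG-only regions in equal lists, 2.38% were WT-only and 7.96% KO-only.

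The 13 PGR-dependent genes had 2 of the regions among 4 PMSG-only regions (50%, beside 13.8% of all PMSG-only regions). Zbtb16, a zinc finger factor induced by steroid receptors, had its 1 PMSG-only region in the set, inside the gene on chromosome 9 at 48751803 to 48752179, with folds of 7.50 and 9.27 in PMSG and 7.17 and 6.18 in WT. Vcan, the matrix proteoglycan versican, had 1 of 1 on chromosome 13 at 89745789 to 89746017, outside the gene, with 3.97 and 4.47 in PMSG and 3.55 and 3.19 in WT. The other PMSG-only regions of this list, 1 at Adamts1, a protease gene, with no WT or KO peak, and 1 at Pparg, a lipid-sensing nuclear receptor gene, were not in the set. In equal lists Zbtb16 kept its region and Vcan did not, and the list had 1 WT-only and 2 KO-only among 10 PMSG-only regions. Of all PMSG-only regions in equal lists, 2.38% were WT-only and 7.96% KO-only. The 20 LH-induced genes had 1 among 13 (7.69%), counted for the sphingosine kinase gene Sphk1 but inside its neighbour Ube2o, with 5.56 and 5.76 in PMSG and 3.82 and 3.59 in WT. PMSG-only regions at Runx1 (3), Runx2 (2), Sult1e1 (2), Ereg (1), Tnfaip6 (1), Cyp11a1 (1) and Adamts1 (1) were not in the set. In equal lists 0 of 22 at LH-induced genes were WT-only and 4 KO-only, beside the same 2.38% and 7.96% of all PMSG-only regions.

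The 19 genes of cyclic nucleotide signalling, which carries the FSH and LH signal, had 4 among 23 PMSG-only regions (17.4%, beside 13.8% of all PMSG-only regions). The highest-ranked region at any listed gene was at Pde7b, a cAMP phosphodiesterase, inside the gene on chromosome 10 at 20438504 to 20438806, with 11.0 and 13.9 in PMSG and 10.6 and 6.05 in WT. Pde4b, a further cAMP phosphodiesterase, had 1 of 2 with folds of 3.84 and 4.07 in PMSG and 2.74 and 3.31 in WT. The regions counted for the adenylate cyclase genes Adcy7 and Adcy3 lay inside their neighbours Tent4b (6.74 and 7.72 in PMSG, 4.82 and 3.97 in WT) and Cenpo (2.87 and 2.57 in PMSG, 2.05 and 2.26 in WT). The 24 genes of TGF-beta family signalling, which oocyte factors and activins use, had 2 among 20 (10%). At Bmpr1b, a receptor of bone morphogenetic proteins, it was 1 of 7, with 6.47 and 5.92 in PMSG and 4.90 and 4.60 in WT, and that counted for Acvr1b lay inside its neighbour Grasp. The 26 genes of Wnt, Notch and Hippo signalling had 0 among 12. Of all PMSG-only regions in equal lists, 2.38% were WT-only and 7.96% KO-only. In equal lists no PMSG-only region at the genes of these 3 groups was WT-only. There 4 of 28, 3 of 21 and 4 of 20 PMSG-only regions in that order were KO-only. Of the 15 regions at listed genes, the region in Zbtb16 was thus the 1 that met the rule in both. Counts of this size are descriptions, and no list was tested.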

How the data were processed

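Peak lists of 8 ATAC-seq libraries were used as deposited, a separate narrowPeak file of 10 columns for each library, with no header line. Per the submitters' processing notes, Bowtie2 and MACS2 were used with build mm10. Versions, filters and any Tn5 shift are not given in the sources used here. Peak names of the WT and KO lists mention filtering and marked duplicates, and those of the PMSG and hCG lists do not. Column 7 of the deposited lists was read as fold over background (a linear ratio), and columns 8 and 9 as −log10 p and −log10 q. The deposited score in column 5 was not used.

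Summits sharing an interval were counted once, with their best fold. Merging was checked against bedtools and tested on simulated data. Gene ends came from 21631 protein-coding genes of a RefSeq table (GRCm38.p6), promoters from its 300-base promoter table. No genome was used here, so motifs outside promoters were not analysed. Python 3.11.15, pandas 2.3.3, scipy 1.17.1 and matplotlib 3.10.9 were used. Shares carry Wilson 95% intervals, and differences carry intervals built from these (Newcombe); both cover counting error only. The rule uses all 8 libraries, so no library was left for a test, and with 2 libraries a group none was run.

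The members and lists were chosen with earlier results of these data known. Named are the 20 best regions by mean rank of fold, the best 5 within 1 kb of a gene end, listed genes with a region within 20 kb, and the 10 genes with most regions. Alternatives were equal list lengths, the best 20000 peaks, −log10 q of 20 or more, 50% coverage, merging over 100 bp, summit windows, distance from absent peaks, wider flanks and leaving out each library. One region among the best-ranked at gene ends is not reported here.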

Additional observations from a re-analysis of the deposited data

How the results depend on the processing

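With the same number of peaks from every list the regions numbered 240 (2.38% of PMSG-only regions), of which 1.25% were within 1 kb of a gene end and 56.2% inside a gene, and WT-only minus KO-only among PMSG-only regions turned from 1136 to −562. With the best 20000 peaks of every list there were 53 regions (1.11%), with 7.55% at a gene end, 18.9% over 100 kb away, 54.7% inside a gene, a median width of 526 bp and a difference of −49, and none of the 1150 was among the 53. Requiring −log10 q of 20 or more gave 14.8% of PMSG-only regions and kept 44.7% of the 1150, coverage of 50% of the region gave 11.1% and kept 57.0%, and summit windows gave 11.8% with a median width of 232 bp. Within 5 kb of a gene end lay 15.5%. Flanks of 50 kb gave 10 regions at pre-surge granulosa genes, 4 at PGR-dependent genes and 1 at Wnt, Notch and Hippo genes. Merging over 100 bp and leaving out regions with an absent library's peak within 500 bp changed none of these results beyond its interval or spread. Leaving out each library in turn gave between 1274 and 3200 regions, 13.9% to 38.4% of PMSG-only regions, 2.97% to 3.97% at a gene end, 13.8% to 21.8% over 100 kb away, 55.2% to 59.8% inside a gene, median widths of 295 to 347 bp, and differences of 1185 to 3164. The shares over 100 kb away and inside a gene, the WT-only minus KO-only difference and the counts at named genes in equal lists were chosen after seeing the data. Motif windows around summits were not run, as no genome was used here. No paired analysis was possible because the results come from no test. Read depth is unknown, so an absent peak can be one below the calling limit.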

Other observations

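The share of PMSG-only regions far from genes is given here by the libraries that held them in the deposited lists. The patterns were chosen after their values were seen. Of 511 PMSG-only regions with a peak in WT replicate 1, KO replicate 2 and no other WT or KO library, 32.3% (Wilson 95% interval 28.4 to 36.5) were over 100 kb from a protein-coding gene end and 46.0% (41.7 to 50.3) were inside a gene. Of 992 held by both WT libraries and KO replicate 2, 25.2% (22.6 to 28.0) were over 100 kb away, and of 338 held by both WT libraries and KO replicate 1, 18.3% (14.6 to 22.8). Of 2050 held by WT replicate 1 alone, 25.1% (23.2 to 27.0) were that far, and of 143 held by WT replicate 2 alone, 21.7% (15.7 to 29.1). Of 116 held by WT replicate 1 and KO replicate 1, 16.4% (10.7 to 24.2) were that far. The share was 15.8% (13.8 to 18.0) of the 1150 held by both WT and no KO library. In equal lists the rule gave 240 regions. Their differences from the sets held by none and by all 4 were smaller than those of the 1150. There 3 of 4 intervals included 0, and the other patterns were not compared with deposited lists in this way.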
